A study of Mus musculus with 6 samples.

Results

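The tripartite motif (TRIM) genes of the mouse were followed in plasmacytoid dendritic cells (pDCs), immune cells that release large amounts of type I interferon on sensing viral nucleic acid. Members were the genes whose probe set carried a symbol of Trim, a number and at most 1 further letter as its only annotated symbol. The rule found 58 members among 19937 genes, each with 1 probe set on the array, and no measured value entered it. Of the 58, 12 belong to a list of 16 interferon-linked TRIM genes and 46 do not. The other 4 entries of that list had no probe set with a single symbol.

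Expression was measured on Affymetrix arrays in 6 samples of splenic cells positive for B220 and SiglecH. Per the labels, 3 came from wild-type (WT) mice and 3 from IRF8-deficient (KO) mice, and no treatment is named. The labels used here do not give the Irf8 allele, a Cre driver, the strain or the age. Since separate animals are not stated, the p-values reflect the variation among these 6 arrays, and it may be technical. Levels are given on the log2 scale of the authors' table.

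TRIM proteins share a RING finger, B-box and coiled-coil core, and most work as E3 ubiquitin ligases whose tail domain chooses the target. Several are induced by type I interferon and act on virus sensing, capsid restriction or the shut-down of Toll-like receptor signalling, and others serve in chromatin, along microtubules or in muscle. IRF8 is a transcription factor of the interferon regulatory factor family, whose members bind repeats of the letters GAAA in DNA.

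Array medians ran from 5.53 to 5.56. The 7 measured pDC markers averaged 11.60 to 11.75 in the WT arrays and 11.33 to 11.38 in the KO arrays. Both groups thus carried these genes at high signal, though every KO average lay below WT. Ccr9 (log2 difference -0.97, limma adjusted p = 0.0221) and Pacsin1 (-0.78, adjusted p = 0.00746) were called lower, and 0 of the 7 higher. Over all genes, 2.08% were called lower and 2.3% higher. At an unadjusted p under 0.05 stood 5 of the 7 (4 lower, 1 higher), beside 16.1% of all genes. In 5 of the 7 (4 lower, 1 higher) all KO arrays lay on one side of WT, beside 20.4% of all genes. The median difference over the 7 was -0.35, with 5 differences negative and 2 positive. The mean level of Irf8 was 10.14 ± 0.15 in the WT arrays against 10.48 ± 0.32 in the KO arrays (SD, n = 3 per group; limma adjusted p = 0.425), with no decrease under the KO label. A probe set outside an altered part of the gene checks nothing, and the direction of all differences depends on the labels. KO replicate 1 stood apart in neutrophil markers, which averaged 8.81 there, 5.57 to 6.25 in the other KO arrays and 4.72 to 5.97 in WT. It also stood apart in proliferation genes. Arrays show relative levels, so fewer cells of a type and less RNA per cell cannot be told apart.

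Few TRIM genes differed between the genotypes. Trim59 was higher in KO, and Trim36 and Trim30d were lower, by limma at a Benjamini-Hochberg adjusted p of 0.05 over all genes. These 3 of 58 members, 5.17%, lay near the 4.38% of all 19937 genes that passed. In 10 members (4 higher, 6 lower) the 3 KO arrays all lay on one side of all WT arrays, while this held for 20.4% of all genes (8.71% higher, 11.7% lower). At an unadjusted p under 0.05 stood 8 members, beside 16.1% of all genes. The median difference over the 58 members was -0.04 on the log2 scale, as it was over all genes (-0.04). In 45 members the difference was smaller than 0.3 log2 units in size, and in 2 it was larger than 1. An unequal-variance test per gene called 0 of the 58 in either direction, and 0.0201% of all genes.

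**Figure D1:**
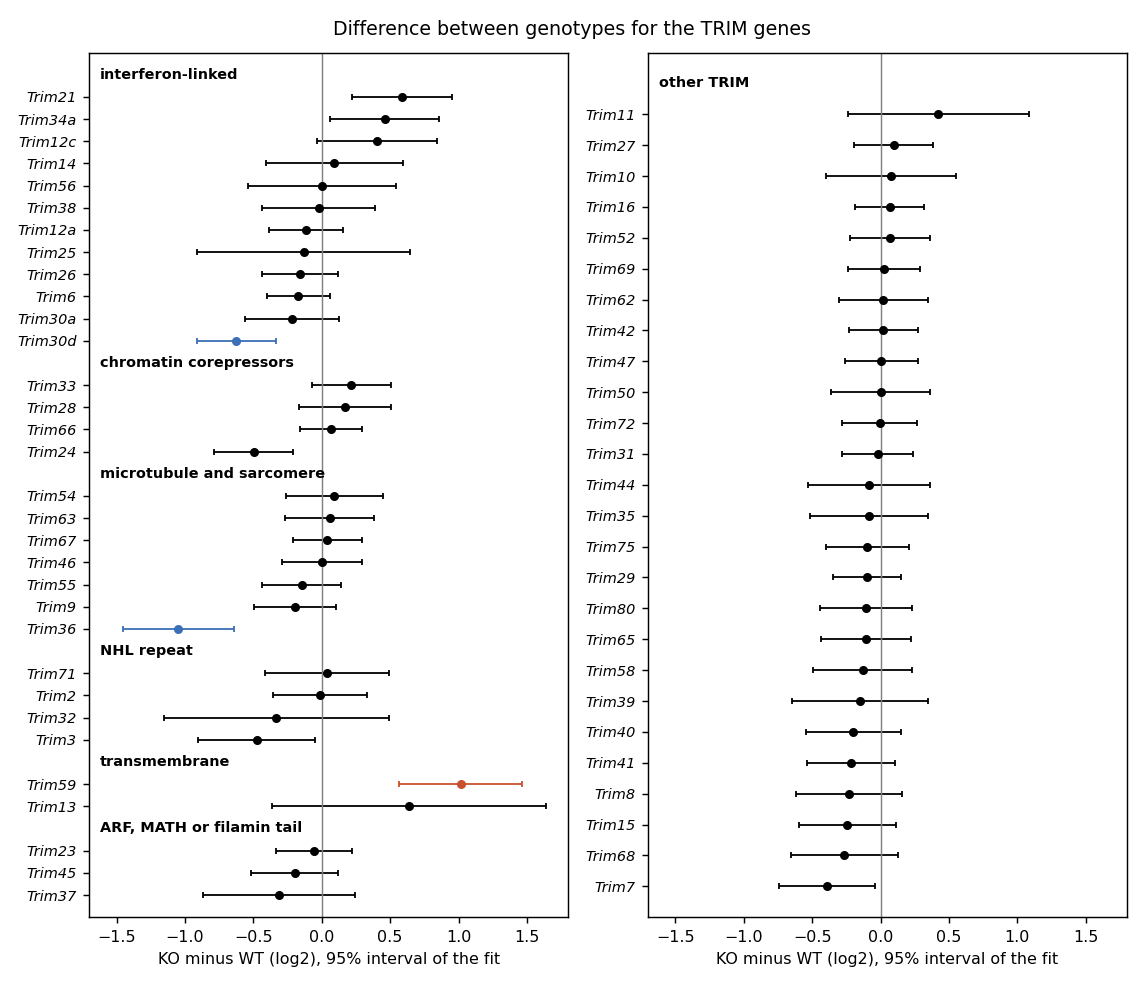
Difference between KO and WT (log2, horizontal axis) for each of the 58 TRIM genes, grouped by role, with the 95% interval of the limma fit (3 arrays per group). Trim59 (red) was higher in KO and Trim36 and Trim30d (blue) were lower, while the other 55 members did not pass the threshold.

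Of the interferon-linked members, Trim30d was lower in KO and the others did not pass the threshold in either direction. By limma 0 of 12 rose and 1, Trim30d, fell, where 2.3% of all genes were called higher and 2.08% lower. At an unadjusted p under 0.05, 2 were higher (Trim21 and Trim34a) and 1 was lower, beside 1511 higher and 1692 lower of all 19937 genes. A count this close to the background says nothing particular about the list, and its difference from the interferon pathway genes was not tested. In 4 of the 12 all KO arrays lay on one side of WT, with Trim21 and Trim34a higher and Trim30d and Trim6 lower. This held for 20.4% of all genes (8.71% higher, 11.7% lower). The unequal-variance test called none of the 12, and none was called higher in any of the 16 alternative settings tried. The median difference over the 12 was -0.07, and the median shift from the WT mean was 0.06, -0.03 and -0.12 in KO replicates 1 to 3.

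The letters GAAA, any 2 bases and GAAA, the core of the interferon-stimulated response element that factors of the IRF family bind, are shown next because many interferon-linked TRIM genes carry them at their start. RefSeq promoter windows (GRCm38.p6, 250 bases before to 50 after a gene's start) were found by symbol for 46 of the 58 members. Searched on both strands, the letters stood in 7 of the 11 interferon-linked members with a window, in 1 of the 35 others (Trim2) and in 3.99% of 27025 genes with a window. Each line gives 30 bases around the match, 5′ to 3′ on the gene's strand, with the matched letters in capitals. Overlapping matches are run together.
Trim30a: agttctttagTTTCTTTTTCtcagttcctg
Trim30d: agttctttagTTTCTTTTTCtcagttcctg
Trim12a: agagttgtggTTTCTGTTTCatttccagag
Trim12c: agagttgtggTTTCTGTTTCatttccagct
Trim34a: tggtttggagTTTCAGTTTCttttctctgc
Trim21: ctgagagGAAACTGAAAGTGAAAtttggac
Trim26: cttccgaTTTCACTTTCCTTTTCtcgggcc

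The match began 36 bases before the start in Trim30a (window chr7:104465210-104465239, minus strand) and 41 bases before it in Trim30d (chr7:104507871-104507900, minus strand). In Trim12c it began 29 bases before the start (chr7:104353359-104353388, minus strand), and in Trim12a 10 bases after it (chr7:104315466-104315495, minus strand). Trim34a held it 10 bases after the start (chr7:104244457-104244486, plus strand), and Trim21 13 bases after (chr7:102565447-102565476, minus strand). In Trim26 it began 160 bases before the start (chr17:36836979-36837008, plus strand). The letters GGAA, any 2 bases and GAAA, a form that ETS and IRF factors bind together, overlapped the match in Trim12a and Trim12c. They stood in 3 of the 11 interferon-linked windows' genes, 3 of the 35 others and 3.16% of all genes with a window. A match is a description of the letters and not of a bound factor.

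The windows below come from genes that were higher in KO, and only genes that hold the letters were printed.
Ifit1: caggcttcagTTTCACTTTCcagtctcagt
Ifit3: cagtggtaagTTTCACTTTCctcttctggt
Ddx58: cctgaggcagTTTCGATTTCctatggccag
They lie at chr19:34640775-34640804 and chr19:34583363-34583392 on the plus strand and at chr4:40239804-40239833 on the minus strand. The same letters stood at some genes that rose and at some TRIM genes that did not, and their part in the differences was not tested. Among the 7 interferon-linked TRIM genes that hold it, differences ran from -0.63 to 0.59, with 0 called higher and 1 called lower. Among the 4 with a window that lacks it (Trim6, Trim25, Trim38 and Trim56), they ran from -0.17 to 0.00. In the interferon pathway list, 10 genes higher in KO had a window, of which 5 held the letters and 5 lacked them. Of the 11 genes with a window that were not higher, 4 held them.

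Trim30a and Trim30d are neighbouring paralogs, and the protein of the former is known to restrain Toll-like receptor signalling by promoting the loss of TAB2 and TAB3. The 150 bases before their starts are nearly the same: 140 positions were identical, 5 mismatched and 10 fell in gaps, or 96.6% identity over aligned bases. They are shown because Trim30d passed the threshold and Trim30a did not.
Trim30a: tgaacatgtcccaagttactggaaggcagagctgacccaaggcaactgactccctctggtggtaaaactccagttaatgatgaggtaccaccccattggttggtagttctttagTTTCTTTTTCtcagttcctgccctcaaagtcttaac
Trim30d: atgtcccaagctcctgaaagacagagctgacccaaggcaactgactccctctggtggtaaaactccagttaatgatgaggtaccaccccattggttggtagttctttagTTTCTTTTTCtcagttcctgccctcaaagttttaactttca
The stretches are chr7:104465194-104465343 and chr7:104507850-104507999, both on the minus strand, and capitals again mark the match.

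Trim30d measured 10.04, 9.69 and 9.95 in WT replicates 1 to 3 and 9.20, 9.30 and 9.32 in the KO replicates. The highest KO value lay below the lowest WT value. Trim30d fell by 0.63 on the log2 scale (SE 0.12, 1.54-fold, limma adjusted p = 0.0345; exact permutation p = 0.10, the smallest that 3 against 3 arrays can give). The call was lost when any array but WT replicate 2 was left out (highest adjusted p 0.123, without KO replicate 2) and with a variance trend (0.0623).

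Trim30a measured 10.37, 10.65 and 10.42 in WT and 10.01, 10.42 and 10.35 in KO, and the groups overlapped. Its difference was -0.22 (95% interval -0.56 to 0.13, limma adjusted p = 0.565). Within each array, Trim30d minus Trim30a averaged -0.58 ± 0.33 in WT against -0.99 ± 0.16 in KO (SD, 3 arrays each), so the difference between the paralogs' responses was -0.41 (exact permutation p = 0.20). Trim30d is thus not shown to differ from Trim30a, and near-identical members of this group can share a probe set's signal.

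Trim12a and Trim12c are mouse relatives of the capsid restriction factor TRIM5. Trim12a measured 9.13, 9.14 and 9.19 in WT and from 8.91 to 9.21 in KO, a difference of -0.12 (adjusted p = 0.726). Trim12c measured 6.76, 6.80 and 7.36 in WT and 7.39, 7.18 and 7.57 in KO, a difference of 0.40 (95% interval -0.04 to 0.84, adjusted p = 0.361). WT replicate 3 lay inside the KO range for Trim12c.

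Trim34a, another relative of Trim5, measured 6.78, 6.71 and 6.89 in WT and 7.62, 6.99 and 7.14 in KO. All 3 KO values were above WT, yet the difference of 0.46 did not pass (95% interval 0.06 to 0.86, limma adjusted p = 0.229). Without KO replicate 1, the highest array, it was 0.28. The Trim34a probe set lists no RefSeq transcript of the gene. Trim6, whose protein makes ubiquitin chains that activate the kinase IKK-epsilon, averaged 4.84 ± 0.06 in WT against 4.67 ± 0.02 in KO (SD, 3 arrays each), a difference of -0.17 (adjusted p = 0.479), with all KO arrays below WT.

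Trim21 encodes the cytosolic antibody receptor that marks antibody-coated virus for destruction. It measured 6.97, 6.88 and 6.55 in WT and 7.56, 7.16 and 7.44 in KO. The groups did not overlap, and KO was higher by 0.59 (95% interval 0.22 to 0.95), which missed the threshold (limma adjusted p = 0.0988). Over the alternatives its difference stayed positive, between 0.46 and 0.70, and did not pass in any.

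Trim25 encodes the ligase that ubiquitinates the RNA sensor RIG-I, the product of Ddx58. It measured 9.48, 10.03 and 10.32 in WT and 9.08, 10.12 and 10.22 in KO. Both arrays numbered 1 were the lowest of their group, and the groups overlapped (difference -0.13, 95% interval -0.91 to 0.65, limma adjusted p = 0.906). Its sign turned with array weights (0.08), without WT replicate 3 (0.05) and without KO replicate 1 (0.23). Ddx58 itself measured 5.78, 5.55 and 5.31 in WT and 8.82, 8.44 and 8.45 in KO, so all KO arrays were higher. It rose 8.14-fold (log2 difference 3.03, limma adjusted p = 0.000126).

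In the remaining interferon-linked members the groups overlapped. Trim56, which acts with the DNA sensing adaptor STING, measured 7.97, 7.82 and 7.87 in WT and 8.39, 7.88 and 7.40 in KO, so the KO arrays spread on both sides of WT (difference 0.00, adjusted p = 0.999). Trim14, an adaptor at the mitochondrial protein MAVS, differed by 0.09 (adjusted p = 0.902), and Trim26, a regulator of antiviral signalling, by -0.16 (adjusted p = 0.605). Trim38, which restrains Toll-like receptor signalling, averaged 4.10 ± 0.34 in WT and 4.07 ± 0.11 in KO (SD, 3 arrays each; difference -0.02, adjusted p = 0.973). The 6-array mean of Trim38 lay below the lower quartile of all gene levels, 4.58.

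**Figure D2:**
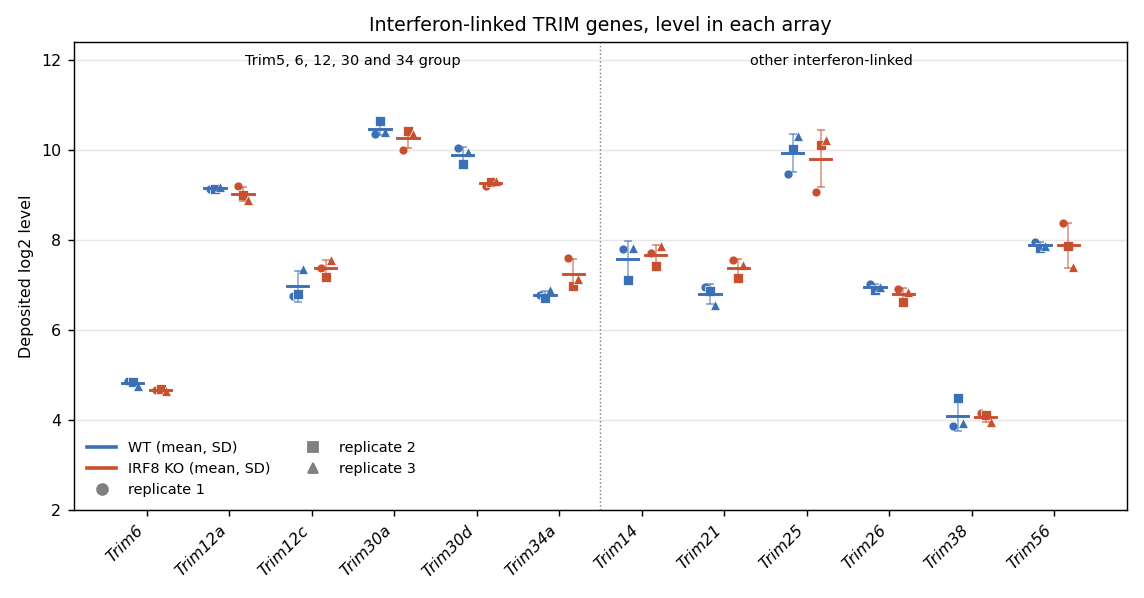
Deposited log2 level (vertical axis) of the 12 interferon-linked TRIM genes in each of the 6 arrays, with WT in blue, KO in red, marker shapes for replicates 1 to 3, and the group mean with its SD. Trim30d and Trim6 lay below WT in all 3 KO arrays and Trim21 and Trim34a lay above it, though of these 4 only Trim30d passed the threshold. Of all genes, 20.4% had all 3 KO arrays on one side of WT.

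For comparison, the interferon pathway list holds 31 interferon-stimulated and signalling genes outside the TRIM family, 28 of them measured. By limma 14 rose and 0 fell, where 2.3% of all genes were called higher and 2.08% lower. At an unadjusted p under 0.05, 17 were higher and 2 were lower, beside 16.1% of all genes in either direction. The unequal-variance test called 0 of the 28 and 0.0201% of all genes. The list's median difference was 0.85, beside -0.07 for the interferon-linked TRIM genes and -0.04 for all genes. The list was chosen with earlier results of these data known, so its direction is not independent evidence. The largest rises were Rtp4 (5.73), Oas2 (3.65), Ifit3 (3.21) and Ifit1 (3.19) on the log2 scale. In all 3 KO arrays the list's median shift lay between 0.83 and 1.06, while that of the interferon-linked TRIM genes lay between -0.12 and 0.06. Irf7, the factor that amplifies interferon production, measured 8.94, 8.82 and 9.15 in WT and 8.61, 9.57 and 9.69 in KO (adjusted p = 0.669), and it passed as higher by 0.66 without KO replicate 1 (adjusted p = 0.0353).

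**Figure D3:**
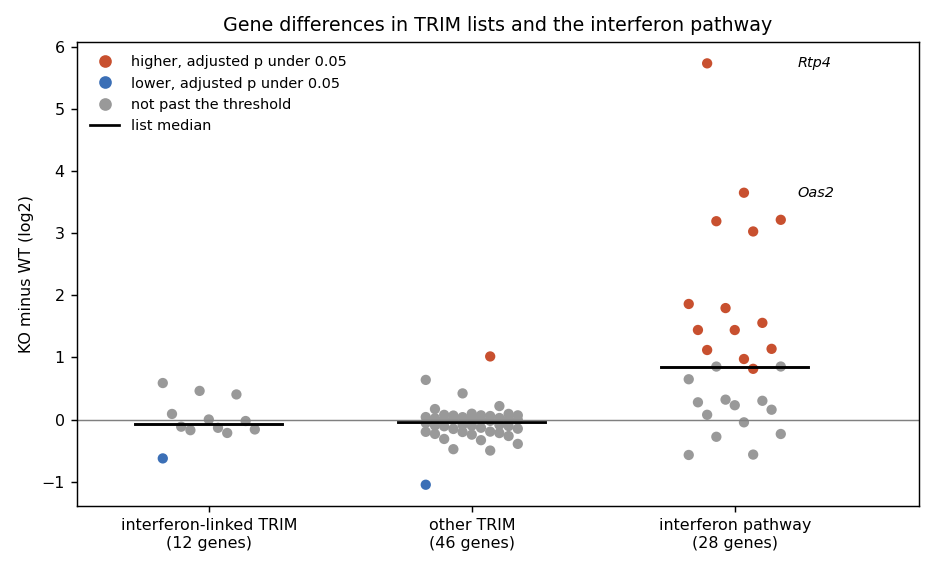
Difference between KO and WT (log2, vertical axis) of each gene in 3 lists, with the list median as a black line and genes past the threshold in red (higher) or blue (lower). The interferon pathway genes reached 5.73 with a median of 0.85, while the interferon-linked TRIM genes lay between -0.63 and 0.59 and 0 of them were called higher.

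Signalling partners of TRIM proteins were examined as a list of 14 genes, 11 of them measured. Of these 2 rose and 0 fell by limma (median 0.24), beside 2.3% of all genes called higher and 2.08% lower. At an unadjusted p under 0.05 stood 4 of the 11 and 16.1% of all genes. Besides Ddx58, Zc3hav1 rose by 0.85 (adjusted p = 0.0447). Zc3hav1 encodes the antiviral protein ZAP, whose action needs TRIM25. This call was lost without any array but KO replicate 1 (highest adjusted p 0.171, without KO replicate 2) and with a variance trend (0.0542). Irf3, the factor activated downstream of RIG-I, differed by -0.04 (adjusted p = 0.931).

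TRIM proteins whose symbol falls outside the rule were measured beside them. Pml, the interferon-induced scaffold of nuclear bodies, measured 8.65, 8.79 and 8.93 in WT and 8.35, 8.20 and 8.12 in KO. It fell by 0.57 (limma adjusted p = 0.0451), and all KO arrays were lower. The call was lost without any array but KO replicate 1 (highest adjusted p 0.172, without KO replicate 3), with a variance trend (0.0849) and with replicate number blocked (0.0587). Mefv, which encodes pyrin, differed by 0.06 (adjusted p = 0.893).

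Trim36 showed the largest fall in the family. It encodes a microtubule-associated ligase of the subgroup that also holds MID1 and MID2. Trim36 measured 7.52, 7.97 and 7.94 in WT and 6.57, 6.68 and 7.03 in KO, with no overlap. It fell by 1.05 on the log2 scale (SE 0.17, 2.07-fold, limma adjusted p = 0.0164). The call was lost without WT replicate 2 (adjusted p = 0.0705), WT replicate 3 (0.0739) or KO replicate 2 (0.0802).

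Mid1, the paralog of Trim36 that binds microtubules and directs loss of a protein phosphatase subunit, was also lower. It measured 8.41, 8.50 and 8.47 in WT and 7.11, 7.51 and 7.66 in KO, and it fell by 1.03 (2.04-fold, limma adjusted p = 0.0106). Its call was lost without WT replicate 2 (adjusted p = 0.0501) or WT replicate 3 (0.0504). Mid2 differed by -0.09 (adjusted p = 0.803) at a level of 3.59 in WT. Of the 7 microtubule and sarcomere members under a Trim symbol, 1 fell and 0 rose, beside 2.08% and 2.3% of all genes. The other 6 ran from -0.19 (Trim9, a neuronal ligase) to 0.09 (Trim54, a muscle ligase), and 5 of the 7 had a 6-array mean below the median of all gene levels, 5.69.

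Trim59 encodes a ligase anchored in membranes. It measured 7.64, 7.63 and 7.38 in WT and 8.99, 8.29 and 8.42 in KO, so every KO array was higher and KO replicate 1 was the highest. It rose by 1.01 on the log2 scale (SE 0.19, 2.02-fold, limma adjusted p = 0.0279). Leaving out any single WT array, or KO replicate 3, ended the call (highest adjusted p 0.107, without WT replicate 3).

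Proliferation genes were measured beside Trim59, and their part in its difference was not tested. Over all genes, 2.3% were called higher by limma. Of the 9 proliferation genes measured, 1, Mcm6, passed as higher by limma (1.44, adjusted p = 0.0204), and the other 8 had positive differences that did not pass. The median difference over the 9 was 1.44, and in all 9 every KO array lay above all WT arrays, beside 8.71% of all genes. At an unadjusted p under 0.05 stood 5 of the 9, all higher, and 16.1% of all genes in either direction. The mean level of the proliferation genes ran from 6.03 to 6.18 in the WT arrays and was 8.26, 6.82 and 6.70 in KO replicates 1 to 3. Without KO replicate 1 the difference of Trim59 was 0.80 (adjusted p = 0.0145). Trim13, the other membrane-anchored member and a ligase of the endoplasmic reticulum, measured 4.65, 5.96 and 5.60 in WT and 6.42, 5.20 and 6.51 in KO. The arrays of each group spread widely, and its difference of 0.64 did not pass (95% interval -0.37 to 1.64, adjusted p = 0.561).

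**Figure D4:**
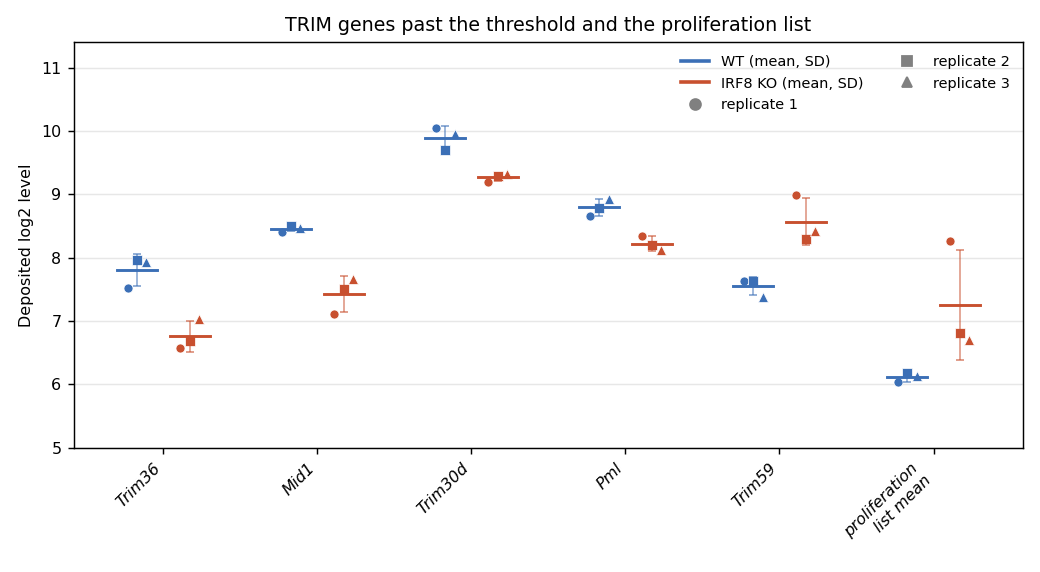
Deposited log2 level (vertical axis) in each array for the 3 TRIM genes past the threshold, for Mid1 and Pml, and for the mean of 9 proliferation genes, with WT in blue, KO in red and the group mean with its SD. Trim36, Mid1, Trim30d and Pml were lower in all 3 KO arrays, and Trim59 was higher, with KO replicate 1 at 8.99 for Trim59 and at 8.26 for the proliferation mean.

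The chromatin corepressors did not pass in either direction: limma called 0 of 4, with 1 at an unadjusted p under 0.05. Over all genes, 4.38% were called and 16.1% stood at that p. Trim24, a coregulator of nuclear receptors, measured 8.89, 9.10 and 9.09 in WT and 8.70, 8.44 and 8.44 in KO. The groups did not overlap, and the difference was -0.50 (95% interval -0.79 to -0.21, limma adjusted p = 0.0774). Trim24 passed as lower without KO replicate 1 (-0.59, adjusted p = 0.0358), without both arrays numbered 1 (-0.65, 0.0305) and with array weights (-0.56, 0.0253).

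Trim28, the corepressor recruited by KRAB zinc finger proteins, averaged 8.03 ± 0.19 in WT against 8.20 ± 0.18 in KO (SD, 3 arrays each; difference 0.17, adjusted p = 0.670). Trim33, which binds SMAD proteins, measured 8.62, 8.27 and 8.54 in WT and 8.71, 8.73 and 8.65 in KO. Its KO values were all above WT by a small margin (0.22, 95% interval -0.07 to 0.50, adjusted p = 0.471). Trim66 differed by 0.06 (adjusted p = 0.836) at a level of 4.97 in WT. Of 10 genes that encode partners of these corepressors, 2 rose and 0 fell (median 0.26), beside 2.3% of all genes called higher and 2.08% lower. Chd3, a nucleosome remodeller, rose by 1.33 (limma adjusted p = 0.00817) and Cbx1, a heterochromatin protein, by 0.47 (0.0468). The call of Cbx1 was lost when any 1 array was left out (highest adjusted p 0.176, without KO replicate 3), with quantile normalization (0.0694), with a variance trend (0.113), among bright genes alone (0.0553) and with replicate number blocked (0.0596).

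Of the 4 members with NHL repeats, which bind RNA or protein partners, limma called 0, with 1 at an unadjusted p under 0.05. The shares of all genes were 4.38% and 16.1%. Trim3 measured 7.03, 6.91 and 7.54 in WT and 6.78, 6.49 and 6.78 in KO, a difference of -0.48 (adjusted p = 0.250). Trim32 measured 6.37, 6.70 and 6.55 in WT and 7.11, 5.64 and 5.88 in KO, so KO replicate 1 lay above all WT arrays and the other KO arrays below them. Its difference was -0.33 (adjusted p = 0.745), and it passed as lower by 0.78 without KO replicate 1 (adjusted p = 0.0225) and by 0.87 without both arrays numbered 1 (0.0193). Trim32 was named after its values were seen. Trim2 and Trim71, the latter a stem cell regulator, differed by -0.01 and 0.04.

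A further group carries an ARF, MATH or filamin tail domain. Trim23, Trim37 and Trim45 differed by -0.06, -0.31 and -0.20, and limma called 0 of them, with 0 at an unadjusted p under 0.05. The shares of all genes were 4.38% and 16.1%. The Trim23 probe set lists no RefSeq transcript of the gene.

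The other 26 members, most of them with a PRY-SPRY tail, ran from -0.39 to 0.42. Among them limma called 0, with 1 (Trim7) at an unadjusted p under 0.05, beside 4.38% and 16.1% of all genes. In 24 of the 26 the difference was smaller than 0.3 in size, and 15 had a 6-array mean below the median of all gene levels. The extremes, named after their values were seen, were Trim7 (adjusted p = 0.249) and Trim11 (adjusted p = 0.560). Trim10 and Trim58, known from red cell development, measured 4.99 and 5.05 in WT and 5.06 and 4.92 in KO. The 4 measured erythroid markers averaged 5.18 to 5.30 in WT and 5.12 to 5.45 in KO.

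Markers of other cells that the gate could hold were measured beside these values, and their part in the TRIM differences was not tested. By limma 2.3% of all genes were called higher and 2.08% lower. Of 7 B cell markers 2 rose (Cd79a and Cd22) and 0 fell, with 4, all higher, at an unadjusted p under 0.05. Of 8 T cell markers 1 rose (Cd8a) and 2 fell (Cd4 and Cd8b1), while Cd3d, Cd3e, Cd3g, Lat and Bcl11b did not pass. At an unadjusted p under 0.05 stood 3 of the 8. The called Cd4, Cd8a and Cd8b1 averaged 8.87 to 11.17 in WT and KO, whereas Cd3d, Cd3e and Cd3g averaged 3.97 to 5.80. The calls are therefore not a measure of T cells in the samples. Of 7 conventional dendritic cell markers 2 rose (Itgax and Flt3) and 1 fell (Clec9a), while Zbtb46, Xcr1, Sirpa and Batf3 did not pass. At an unadjusted p under 0.05 stood 4 of the 7. Clec9a averaged 10.16 in WT, whereas Zbtb46 and Xcr1 averaged 4.49 to 5.24 in WT and KO. These calls likewise do not measure conventional dendritic cells. Of 8 macrophage and monocyte markers 1 fell and 0 rose, and their mean level ran from 5.63 to 6.97 in WT and from 5.35 to 5.58 in KO. At an unadjusted p under 0.05 stood 5 of these 8 (4 lower, 1 higher), and the median difference was -0.97. None of 7 natural killer cell markers passed, with 3 at an unadjusted p under 0.05, and none of 9 neutrophil markers, with 0 at that p. All 9 neutrophil differences were nevertheless positive, with a median of 0.94 beside -0.04 over all genes. The arrays spread widely in some of them (S100a8 SD 2.72 in WT and 2.69 in KO), so the missing calls do not show equal neutrophil signal. Of the 7 markers of pDCs themselves, 2 fell (Ccr9 and Pacsin1) and 0 rose, with 5 at that p. Of all genes, 16.1% stood at that p.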

How the data were processed

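Per the labels, total RNA was reverse transcribed, amplified (NuGen PICO SL), biotin labelled and measured by the Affymetrix protocol. The authors deposited log2 values for 34760 probe sets. The software, background correction and normalization behind them: not given in the sources used here. Array medians were nearly equal, so a change of all transcripts one way cannot be seen. The number of arrays limits the precision.

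Of the probe sets, 21640 had 1 gene symbol, 1321 several and 11799 were not listed in the platform annotation. The brightest probe set stood for a gene. RefSeq names (GRCm38.p6) changed 0 symbols. Genotypes were compared with limma 3.58.1 (R 4.3.3; lmFit, eBayes, no covariates, no filter), two-sided and Benjamini-Hochberg adjusted over 19937 genes. The fit was tested on simulated data. Exact permutation tests used all 20 relabellings.

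Members and lists were chosen with earlier results of these data known. Genes named were all interferon-linked members, all called members, the chromatin corepressors, the largest differences that missed the threshold (up to 2 each way), Pml, Mefv, Mid1, Mid2 and the largest pathway rises. The 3 members with the highest signal are among them. Promoter stretches were aligned with Biopython 1.88. Alternatives were other scalings, filters, probe set rules, variance models, a replicate block and arrays left out.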

Additional observations from a re-analysis of the deposited data

How the results depend on the processing

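The unequal-variance test called 0 members higher and 0 lower. With a variance trend 1 member was lower. Leaving out 1 array at a time gave 0 to 1 higher and 0 to 3 lower members, a median of -0.13 to -0.03 for the interferon-linked members and of -0.08 to 0.005 for the others. Without both arrays numbered 1 the interferon-linked median was -0.15. Quantile normalization, centring, the filter for bright genes, the mean of probe sets and RefSeq-matched probe sets each left 1 member higher and 2 lower, Trim59, Trim36 and Trim30d. The replicate number as a block also gave 1 higher and 2 lower, and raised the calls over all genes from 874 to 1362. Deviations of same-numbered arrays correlated at 0.379, 0.0968 and 0.252, and KO replicates 1 and 3 correlated best with the WT array of their number. KO replicate 2 correlated best with WT replicate 3 (0.200), and the remaining differently numbered arrays correlated at -0.306 to 0.0583. These values do not settle whether the numbers mark pairs, and the main fit did not use them as such.

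Over the settings other than the unequal-variance test, 2.26% to 8.7% of all genes were called. Signs turned for genes near 0. With 1 array left out, Trim14 ran from -0.14 to 0.21, Trim25 from -0.36 to 0.23, Trim56 from -0.25 to 0.25, Irf3 from -0.12 to 0.028 and Mefv from -0.054 to 0.13. Trim14 was -0.14 without WT replicate 2 and -0.01 without KO replicate 3, and Trim38 was 0.17 and 0.04 there. Trim25 was 0.081 with array weights, 0.05 without WT replicate 3, 0.23 without KO replicate 1 and 5e-04 without both arrays numbered 1. Trim56 was -0.045 with quantile normalization, -0.13 with array weights, -0.03 without WT replicate 2, -0.006 without WT replicate 3, -0.25 without KO replicate 1 and -0.21 without both arrays numbered 1. Irf3 was 0.028 without KO replicate 2 and 0.00425 without both arrays numbered 1. Mefv was -0.00097 without WT replicate 3 and -0.054 without KO replicate 3. The cause of these changes was not tested.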

Other observations

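Another 6 probe sets carry several symbols of which at least 1 fits the TRIM rule, and they entered no comparison. In a limma fit over all 34760 probe sets their differences ran from -0.26 to 0.36. In the fit by gene, 4.38% of all genes passed the threshold and 16.1% stood at an unadjusted p under 0.05. Of the 6 probe sets, 0 passed, with 1 at that p. That probe set lists 3 symbols and measured 8.34, 8.09 and 8.20 in WT and 8.54, 8.71 and 8.47 in KO, so all KO arrays were higher by a small margin (limma adjusted p = 0.308).

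Trim44, a TRIM protein without a RING finger, was named after its values were seen because it shares the array pattern of Trim25. It measured 8.28, 8.60 and 8.76 in WT and 8.11, 8.56 and 8.71 in KO. In both genotypes the array numbered 1 was the lowest, as it was for Trim11, which measured 6.51, 7.04 and 7.31 in WT and 6.83, 7.54 and 7.76 in KO. It was also the lowest in both for Trim8, Trim9, Trim30a, Trim36 and Trim41. The share of all genes with this order was not counted, so the pattern cannot be called particular to any member.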
